A study of Mus musculus with 6 samples.

Results

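Plcd4, Trpm7, Slc8a1 and Ier2 are 3 genes of calcium handling and 1 immediate early gene, read here by 6 array probes in parthenogenetic mouse embryos. A probe was taken when the platform annotation gave it exactly 1 gene symbol and that symbol was one of these names; 3 further probes list one of the genes together with another gene and were left out. The 4 genes stand among 4742 genes, and their 6 probes among 6152 probes, that carry 1 gene symbol and were tested. The genes were selected on their difference between the groups in an earlier examination of these same arrays. Their differences are therefore given as a description, with no test.

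The study compares embryos whose eggs began development by different chemical routes. Eggs in the second metaphase were activated with cycloheximide (spelled cyclohexamide in the labels) for 1 group and with strontium chloride for the other, and cytochalasin D was given in both. Embryos of both groups were cultured in KSOM medium for 60 h, and the messenger RNA of 25 embryo equivalents went through 2 rounds of amplification and carried the Cy3 dye. Each group had 3 arrays, and all 6 arrays carried the same universal mouse reference RNA in Cy5. As no sperm took part, the embryos of both groups hold maternal genomes alone. Separate cultures are not named for the arrays within a group, so p-values here reflect only how these samples scatter, and that scatter could be technical.

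Calcium is the signal by which sperm activate an egg. A phospholipase C splits a membrane lipid into inositol trisphosphate and diacylglycerol, inositol trisphosphate opens channels of the endoplasmic reticulum, and calcium leaves the store in repeated waves, while channels of the plasma membrane let calcium in and pumps and exchangers remove it. Strontium ions evoke such waves without sperm. Cycloheximide blocks protein synthesis, so that the proteins that hold the egg in metaphase are lost, and it activates eggs without the waves. Immediate early genes are transcribed soon after a stimulus without new protein synthesis. They also respond to inhibitors of protein synthesis, calcium and growth factors.

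Promoter windows are shown first, to set the genes that stood higher after cycloheximide beside the exchanger, whose first probe stood lower. They are the DNA that RefSeq places around their start sites (assembly GRCm38.p6, 250 bases before to 50 after the start, 5' to 3' on the strand of the gene). Entries were found for 3 of the 4 genes. Capitals mark matches, on either strand, to 6 short motifs: the full cAMP response element (TGACGTCA), the shorter core of that element (TGACG), the AP-1 site (TGACTCA), the core of the NFAT site (GGAAA), the E-box (CACGTG) and the TATA box (TATAAA).
Plcd4, chr1:74542639-74542938, plus strand: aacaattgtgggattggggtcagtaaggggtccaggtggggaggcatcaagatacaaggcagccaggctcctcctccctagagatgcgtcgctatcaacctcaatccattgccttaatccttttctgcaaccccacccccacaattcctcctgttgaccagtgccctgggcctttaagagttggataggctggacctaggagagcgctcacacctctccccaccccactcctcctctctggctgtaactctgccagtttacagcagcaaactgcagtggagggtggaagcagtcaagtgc
Trpm7, chr2:126876212-126876511, minus strand: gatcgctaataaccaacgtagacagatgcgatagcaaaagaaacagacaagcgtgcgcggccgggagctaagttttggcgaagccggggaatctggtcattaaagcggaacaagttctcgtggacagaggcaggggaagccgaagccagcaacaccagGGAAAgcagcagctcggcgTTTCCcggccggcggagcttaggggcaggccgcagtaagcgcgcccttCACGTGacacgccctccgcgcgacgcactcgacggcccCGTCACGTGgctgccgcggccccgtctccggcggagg
Slc8a1, chr17:81738338-81738637, minus strand: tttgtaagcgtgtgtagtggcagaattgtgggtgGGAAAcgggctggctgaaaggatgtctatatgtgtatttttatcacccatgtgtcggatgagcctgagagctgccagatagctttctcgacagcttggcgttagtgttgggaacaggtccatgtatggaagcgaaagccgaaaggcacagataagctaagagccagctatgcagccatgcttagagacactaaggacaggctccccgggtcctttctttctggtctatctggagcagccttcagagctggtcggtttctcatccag

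The window of Trpm7 held the E-box 2 times, with first bases at -25 and 17 from the start site, a motif found in 7.15% of 32851 promoter windows in the table. The second of these overlapped the shorter core of the cAMP response element, which 20.8% of windows held. Trpm7 also had 2 NFAT cores and Slc8a1 had 1, a motif present in 61.3% of windows. None of the 6 motifs was in the window of Plcd4 shown, and its other listed start had 1 NFAT core. The full cAMP response element was in 1.79% of windows, the AP-1 site in 5.20% and the TATA box in 13.6%. The window of Trpm7 was 63.7% G and C with 35 CG dinucleotides, that of Plcd4 55.3% with 3 and that of Slc8a1 50.7% with 9, against medians of 52.7% and 7 over all windows. These matches describe the letters alone, and no binding or promoter activity was measured.

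A level is the log2 of embryo RNA over reference RNA on an array, and differences are cycloheximide minus strontium. The ratio's direction is taken as likely from the dyes named in the labels, and every sign would turn if it were the opposite. No array had the dyes exchanged, so an effect of the dye or of the rounds of amplification on a probe cannot be told apart from a difference from the reference. In RNA of whole embryos, fewer cells of a type and less RNA per cell cannot be told apart either. Array 3 of cycloheximide stood apart. Across probes its correlation was 0.909 with the third strontium array, but 0.762 and 0.810 with the remaining cycloheximide arrays. The interquartile range of levels was 1.60 and 1.59 on these arrays and 1.11 to 1.41 on the others. Of genes that mark the preimplantation embryo, 11 of 19 had a probe of their own, and their mean level lay between 1.80 and 2.31 on every array. Tdgf1 reached the limit of the ratio, 6.64, on 6 arrays and Dppa3 on 1, so their values there are capped. These 2 genes still raised the mean, which lay between 0.90 and 1.35 for the other 9 genes. The mean was between -2.12 and -1.65 for 6 of 18 fibroblast genes, -1.24 and -0.80 for 4 of 21 cumulus and granulosa genes, -0.48 and 0.02 for 5 of 17 blood genes, and -0.46 and 1.13 for 3 of 16 oocyte genes. For each of these 5 lists the arrays of the groups overlapped. Genes within a list differed widely. Among fibroblast genes S100a4 read 0.36 to 0.70 and Col1a1 -6.64, a limit of the ratio, to -3.96. Among blood genes S100a8 read 0.27 to 0.72 and Ptprc -3.41 to -1.44. Of the 11 embryo markers 3 had all cycloheximide arrays below all strontium arrays, as did 6.04% of all probes. For 0 they lay above, as they did for 5.72% of all probes, and 8 overlapped. Tdgf1 is counted among those 8, though at the limit on 6 arrays it could not separate the groups. Of those 3, Cdh1, the epithelial cadherin, read 0.40 to 0.54 after cycloheximide and 0.93 to 0.98 after strontium. Gata3, a factor of the trophectoderm, read -0.51 to -0.37 and -0.08 to 0.12, and Tfcp2l1, a factor of pluripotent cells, 0.21 to 0.31 and 0.39 to 0.63. The part of such differences in the results below was not tested. Probes with 1 gene symbol were not found for Pou5f1, Sox2 and Cdx2.

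Among all 21921 probes tested, 0 passed limma's test of the difference between the groups at an adjusted p of 0.05 (0%), and of the 6 probes described here 0 passed. At an unadjusted p under 0.05 there were 1319 probes. Probes of Plcd4, Trpm7 and Ier2, 3 of the 6, had all cycloheximide arrays above all strontium arrays, as did 5.72% of all probes. Of the 6 probes 0 had all cycloheximide arrays below, as did 6.04% of all probes. These counts were part of what chose the genes.

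Plcd4 (Entrez gene 18802) encodes phospholipase C delta 4, a calcium-sensitive enzyme of inositol trisphosphate production that is known from the acrosome reaction of sperm. Its 1 probe, number 9504, read 4.24, 4.15 and 2.34 on arrays 1 to 3 of cycloheximide. On arrays 1 to 3 of strontium it read 1.45, 2.05 and 1.07. Every cycloheximide array lay above every strontium array, but array 3 of cycloheximide was only 0.29 above the highest strontium array. The means were 3.58 ± 1.07 and 1.52 ± 0.50 (SD, n = 3 each), a difference of 2.06 (SE 0.57), or 4.16-fold. The difference was 2.67 without array 3 of cycloheximide. Of all tested probes, 95 differed more in either direction. The spread within groups was wide for this probe, with 88.8% of probes below it.

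Trpm7 (Entrez gene 58800) encodes a channel for magnesium, calcium and zinc that is fused to a protein kinase and contributes to calcium entry in mouse eggs. Its probe, number 9430, read -0.79, -0.33 and -0.86 after cycloheximide. After strontium it read -2.58, -1.72 and -1.63. The groups were apart by 0.77 at their nearest arrays, and all 6 arrays were below the reference. The means were -0.66 ± 0.29 and -1.97 ± 0.52 (SD, n = 3), a difference of 1.31 (SE 0.32) or 2.49-fold. A larger difference was found for 2.06% of all probes.

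Slc8a1 (Entrez gene 20541) encodes the sodium and calcium exchanger NCX1, which moves calcium out of the cell in exchange for sodium. Probe 17455 read 1.05, 0.94 and 1.92 after cycloheximide and 2.15, 1.68 and 2.16 after strontium. Arrays 1 and 2 of cycloheximide were the lowest, and array 3 fell among the strontium arrays. The means of 1.30 ± 0.54 and 1.99 ± 0.28 (SD, n = 3) differed by -0.69 (SE 0.32), and by -1.0 without array 3 of cycloheximide. Probe 20691 read 0.32, 0.42 and 0.48 after cycloheximide and 0.10, 0.31 and 0.33 after strontium. The groups of this probe overlapped by less than 0.01, and its difference was 0.16 (SE 0.16). The probes of the exchanger thus lay on opposite sides of 0, and 13.0% and 64.4% of all probes had larger differences than they had. The annotation lists 1 sequence record for the first probe, which is among the 9 listed for the second.

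Ier2 (Entrez gene 15936) is an immediate early gene that is induced by growth factors and encodes a nuclear protein. Probe 22045 read 1.65, 0.87 and 1.45 after cycloheximide, above the reference on every array. After strontium it read -1.07, -1.08 and -0.15, below the reference on every array. The nearest arrays of the groups were 1.02 apart, the widest gap of the 6 probes. Its means of 1.32 ± 0.41 and -0.77 ± 0.54 (SD, n = 3) differed by 2.09 (SE 0.35), or 4.26-fold, and 89 probes of the array differed more.

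The other probe of Ier2, number 9573, read -0.95, -1.71 and -2.04 after cycloheximide and -1.44, -1.29 and -1.87 after strontium. The groups overlapped fully, with the highest and the lowest value both after cycloheximide. The means of -1.56 ± 0.56 and -1.53 ± 0.30 (SD, n = 3) differed by -0.03 (SE 0.33). The annotation gives both probes the gene Ier2, and the 1 record listed for probe 22045 is among the 4 listed for probe 9573. The difference between groups was 2.12 lower for probe 9573 than for probe 22045. Which probe follows the transcript was not tested, as probe sequences were not used here. With the probes of a gene averaged, Ier2 differed by 1.03 and Slc8a1 by -0.27.

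**Figure D1:**
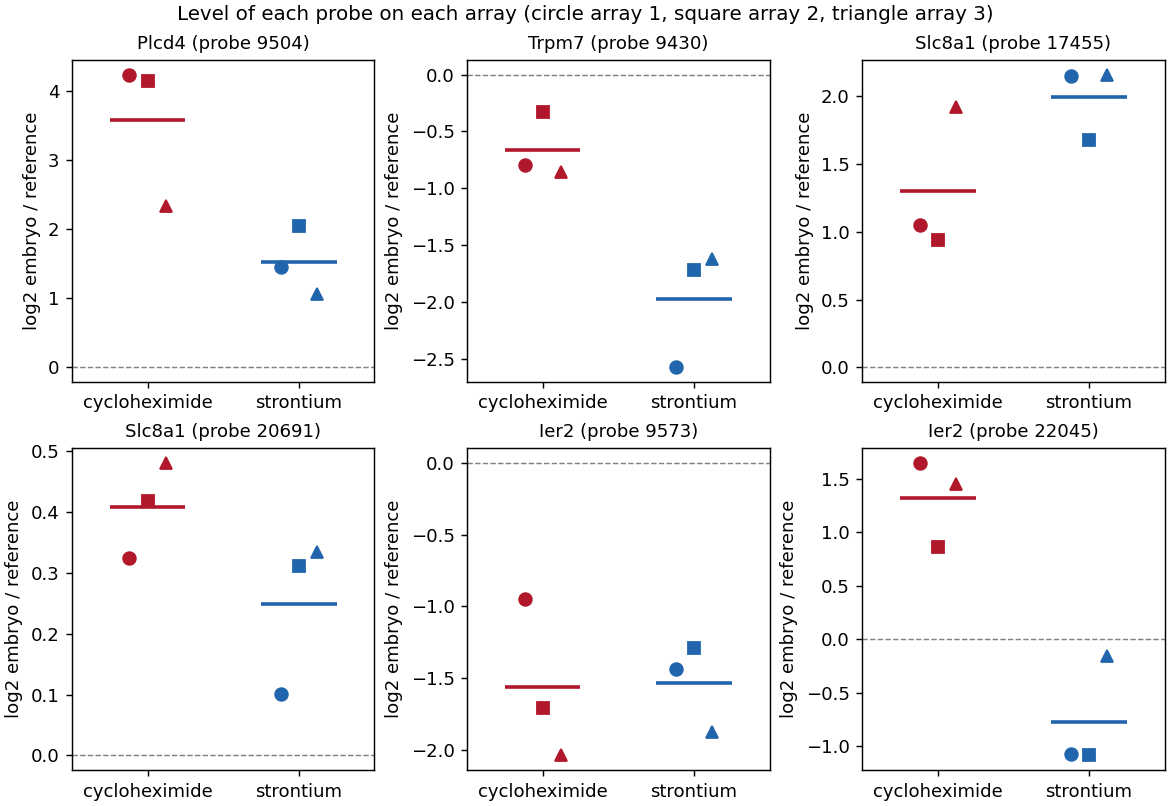
Level of each of the 6 probes (log2 of embryo over reference) on the 3 cycloheximide (red) and 3 strontium (blue) arrays, each panel on its own axis, with a bar at the group mean and a dashed line at the reference. The groups are apart for Plcd4, Trpm7 and probe 22045 of Ier2 and overlap for both probes of Slc8a1 and for probe 9573 of Ier2.

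The mean level over both groups was not used to choose the genes, and limma's test of it against the reference was made for all probes. The reference is 1 RNA pool, so its own spread is not in the error. Of the 6 probes 3 were above the reference at an adjusted p of 0.05 and 2 below, where 40.3% of all probes were above and 26.8% below. With each array centred on its median, which lowered the levels by 0.10 to 0.20, the whole table had 6749 probes above and 6895 below, in place of 8832 and 5881.

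Plcd4 lay above the reference on 6 of 6 arrays, at 2.55 (95% interval 1.85 to 3.25; limma adjusted p = 0.000499). Probe 17455 of Slc8a1 was also above on 6 of 6 arrays, at 1.65 (1.26 to 2.04; limma adjusted p = 0.00028). Probe 20691 of the same gene was above by 0.33 (0.13 to 0.53; limma adjusted p = 0.0127), again on 6 arrays. That small excess was 0.15 and did not pass after centring on the array medians. Trpm7 was below the reference on all 6 arrays, at -1.32 (-1.70 to -0.93; limma adjusted p = 0.000655). Probe 9573 of Ier2 was below on all 6 arrays too, at -1.55 (-1.95 to -1.14; limma adjusted p = 0.000418). Probe 22045 of Ier2 had a mean of 0.28 (-0.15 to 0.70; limma adjusted p = 0.203), with 3 arrays on each side of the reference. Its mean thus stands for no array, as the groups lay on opposite sides.

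The neighbours of each spot on the array were set beside it. Deviations of spots from their mean had a weak correlation, 0.0849, at a distance of 215 probe numbers. The same correlation was used to choose the layout. Numbers of probes were read as 105 lines of 215 spots, and neighbours were the spots within 2 lines and 5 positions. The median difference of 48 neighbours of Plcd4 was -0.20, that of 52 neighbours of Trpm7 -0.06, and that of 54 neighbours of probe 22045 of Ier2 0.01. The highest neighbour was at 0.94 beside Plcd4, 2.18 beside Trpm7 and 1.66 beside Ier2. All cycloheximide arrays lay above all strontium arrays for 3 neighbours of Plcd4, 2 of Trpm7 and 5 of probe 22045 of Ier2. They lay below for 0, 2 and 4 neighbours, in the same order. Over all probes these shares were 5.72% above and 6.04% below. With the neighbours' median subtracted on each array, the differences were 2.32 for Plcd4, 1.43 for Trpm7 and 2.13 for that probe of Ier2. Beside probe 17455 of Slc8a1 the median of 54 neighbours was -0.17, and 11 of them had all cycloheximide arrays below all strontium arrays, as did 6.04% of all probes. Its difference became -0.51 with the neighbours' median subtracted. Beside probe 20691 the median of 51 neighbours was 0.13, close to that probe's own 0.16, and 9 of them had all cycloheximide arrays above, as did 5.72% of all probes. With the neighbours' median subtracted that difference was 0.14. The part of the neighbours in these differences was not tested further.

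**Figure D2:**
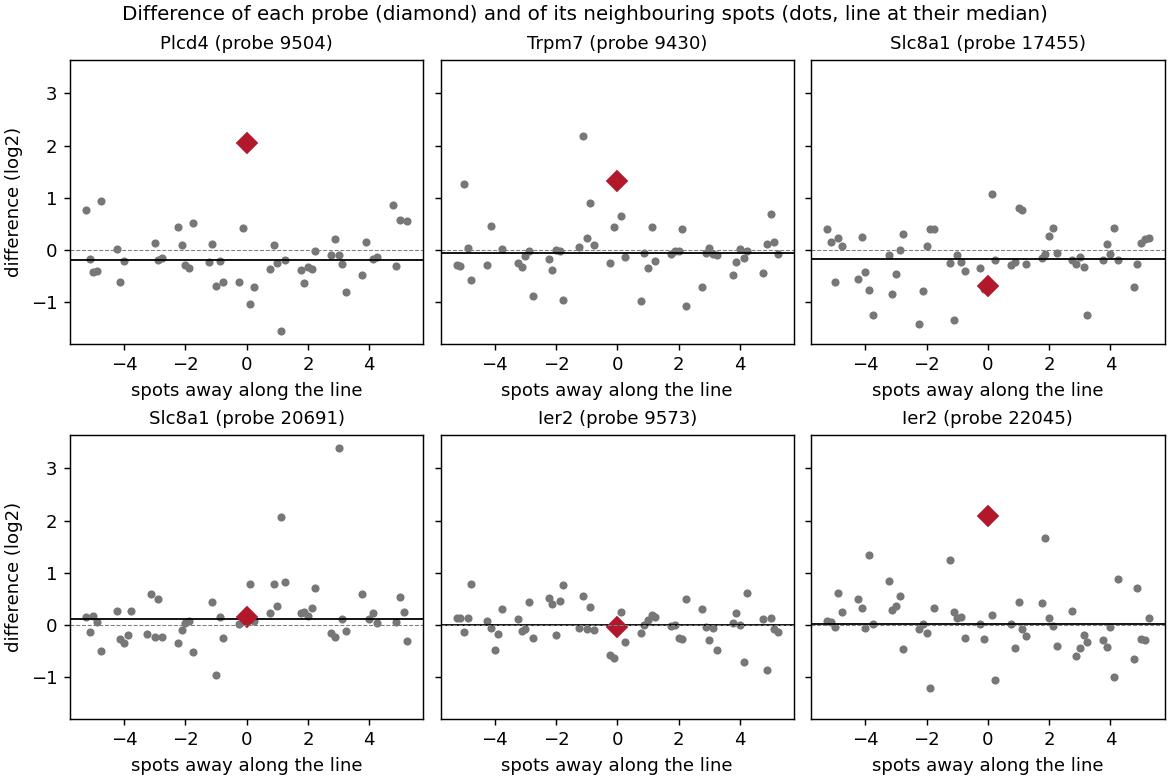
Difference between the groups (log2, cycloheximide minus strontium) of each member probe (diamond at 0) and of the spots within 2 lines and 5 positions of it (dots), against the distance along the line in spots; the solid line is the neighbours' median. Plcd4 at 2.06 and probe 22045 of Ier2 at 2.09 lie above all their neighbours, whose highest are at 0.94 and 1.66, while a neighbour of Trpm7 is higher than it at 2.18.

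The same genes were set among the rest of calcium handling and of the immediate early genes. In 8 lists of 194 symbols, 56 other genes had 73 probes of their own, of which 2 had a value of exactly 0 or at a limit of the ratio and are counted but not named. Of these 73 probes 0 passed limma's adjusted test of the difference, 32 were higher and 41 lower after cycloheximide, and the median difference was -0.02, against -0.05 over all probes. All cycloheximide arrays lay above all strontium arrays for 2 of the 73 (2.74%) and below for 3 (4.11%), where all probes gave 5.72% and 6.04%. Against the reference 19 (26.0%) were above and 28 (38.4%) below by limma's adjusted test, where all probes gave 40.3% and 26.8%.

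Among the other phospholipase C genes, Plcb1, a target of G proteins, differed by -0.48 (SE 0.25) and Plcg2, a target of tyrosine kinases, by -0.09. Of these 2 probes 2 were below 0, as were 56.7% of all probes, and the groups overlapped for each. Of 13 probes for release from and refilling of the store, 8 were above 0 and 5 below, with a median of 0.05. Ahcyl1, which encodes a protein that binds the inositol trisphosphate receptor, differed by 0.78 (SE 0.51). Its other probe differed by 0.33 (SE 0.45), and the groups overlapped for each. Stim2, a calcium sensor of the store, differed by -0.50, -0.39 and -0.07 for its 3 probes, with no overlap of the groups for the second. Atp2a3, a calcium pump of the endoplasmic reticulum, was 0.10 higher without overlap, a small size with a small spread. Its nearest arrays of the groups were only 0.0044 apart.

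For removal of calcium at the plasma membrane, 6 probes besides those of Slc8a1 had a median of -0.17, with 2 above 0 and 4 below. The 4 probes of Atp2b1, a plasma membrane calcium pump, differed by -0.94 (SE 0.59), -0.55, -0.32 and 0.25. Of 16 probes of other TRP channels, 9 were above 0 and 7 below, with a median of 0.07 and 0 without overlap. Trpm6, the other TRP channel fused to a kinase, differed by -0.95 (SE 1.96). That value rested on array 3 of cycloheximide, where its level was -6.18, while arrays 1 and 2 read 0.27 and 1.06. Pkd1, a polycystin, had the highest difference of these probes, 0.46. Mcoln1, a lysosomal channel, had the lowest level of them against the reference, -1.98, and differed by -0.38. The 4 probes of voltage-gated calcium channels lay between -0.37 and 0.10, and Letm1 of the mitochondrial inner membrane differed by 0.25 (SE 0.83).

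Of 24 probes of genes that bind or decode calcium, 17 (70.8%) lay below 0 and 0 passed limma's adjusted test, with a median of -0.13, where 56.7% of all probes lay below 0 with a median of -0.05. Camk2g, a kinase subunit that calmodulin activates and that eggs need for activation, differed by 0.73 (SE 0.46). Canx, the chaperone calnexin, differed by -0.57 (SE 0.61). Nfatc2, a transcription factor that calcineurin activates, and Calb1, a calcium buffer, had all cycloheximide arrays below, by -0.26 and -0.18. Against the reference, a probe of Ppp3cb, a catalytic subunit of calcineurin, was at 1.66 and its other probe at -0.21, and Hspa5, a calcium-binding chaperone of the endoplasmic reticulum, was at -4.67.

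Of 7 probes of other immediate early genes, 4 were above 0 and 3 below, with a median of 0.00. Ier5, a relative of Ier2, read -0.91, -0.89 and -1.64 after cycloheximide and -3.25, -3.13 and -1.64 after strontium. Its arrays 1 and 2 were far apart between the groups, while both arrays 3 were 0.0015 apart. The difference was 1.53 (SE 0.49). Jun, a subunit of AP-1, differed by -0.52 (SE 0.37) and Jund by -0.27. The probes of Egr2 differed by -0.04 and 0.08, Nr4a2 by 0.27 and Ccn1 by 0.00. Of this list 5 probes lay below the reference by limma's adjusted test and 1, that of Jund at 1.17, above, which are 71.4% and 14.3% of 7 probes beside 26.8% and 40.3% of all probes.

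**Figure D3:**
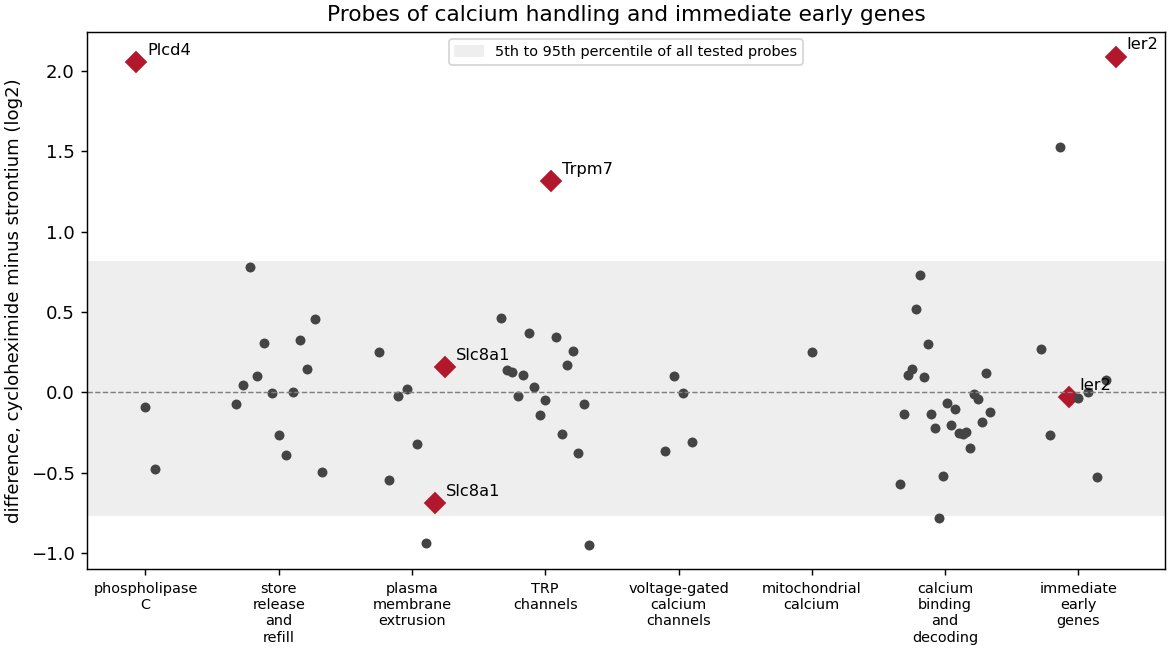
Difference between the groups (log2, cycloheximide minus strontium) for every probe of the 8 gene lists, with the 6 probes of Plcd4, Trpm7, Slc8a1 and Ier2 as red diamonds. The grey band runs from the 5th to the 95th percentile of all 21921 probes, -0.76 to 0.81; Plcd4, Trpm7, probe 22045 of Ier2 and the probe of Ier5 at 1.53 lie above it.

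For each gene the probes with the most similar course over the 6 arrays were looked up among about 5880 probes of other genes, after each probe was set relative to its own mean. Likeness is the root mean square of the remaining differences in log2 units, and a smaller value is a closer course. Cwc22 was closest to Plcd4 at 0.21, followed by Dapk1 and Plxnc1 at 0.32 each. Cwc22 differed between the groups by 1.76 and shared the drop on array 3 of cycloheximide, with -1.18, -1.36 and -2.90 on arrays 1 to 3. Eya3 was closest to Trpm7 at 0.18, with Aire and Cela1 at 0.22 each, and Eya3 differed by 1.08. For probe 17455 of Slc8a1 the closest were Klrd1 at 0.07, Ntf5 at 0.08 and C1qtnf3 at 0.09, with differences of -0.78, -0.59 and -0.70. For probe 22045 of Ier2 they were Zbtb25 at 0.34, Abraxas1 at 0.36 and Polr1a at 0.38, with differences of 2.59, 1.56 and 1.79. A close course over the 6 arrays entails a similar difference between the groups, so the differences of all these probes follow from how they were chosen. The closest probes were thus less like Ier2 than those of Slc8a1 were like it. The Slc8a1 probe also spanned a smaller range over the arrays, 1.22 against 2.73 for the Ier2 probe.

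The differences were recomputed with arrays left out and with other processing. That of Plcd4 lay between 1.72 and 2.67 without any 1 array, that of Trpm7 between 1.01 and 1.49, and that of probe 22045 of Ier2 between 1.93 and 2.40. Where all arrays of a group lie above those of the other, leaving 1 out cannot turn the sign, so these ranges describe size alone. The order of the largest differences was not fixed. Ier2 probe 22045 and Plcd4 stood at 2.09 and 2.06 as reported, at 2.06 and 2.73 after quantile normalization, and at 1.82 and 2.52 with array weights. The average of both Ier2 probes, 1.03, was below the 1.31 of Trpm7. Probe 17455 of Slc8a1 ranged from -1.02 to -0.37, the latter with the spread of the arrays made equal. The average of both Slc8a1 probes was -0.27. Probe 20691 differed by 0.08 without array 1 of strontium. Probe 9573 of Ier2 lay between -0.34 and 0.21 without any 1 array, on both sides of 0.

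**Figure D4:**
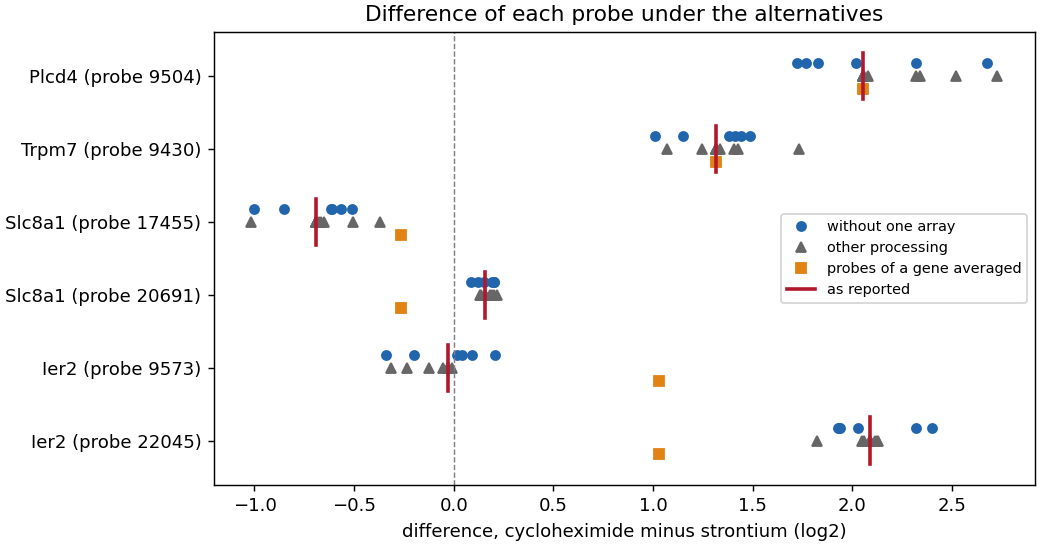
Difference between the groups (log2) of each probe as reported (red bar) and under 18 alternatives: without 1 array (blue circles), with other processing (grey triangles) and with the probes of a gene averaged (orange squares). Some alternatives leave a difference as it is and fall on the red bar; Plcd4 ranges from 1.72 to 2.73 and Trpm7 from 1.01 to 1.73, and averaging brings both probes of Ier2 to 1.03 and both of Slc8a1 to -0.27.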

How the data were processed

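The authors deposited a log10 ratio of the 2 channels for each of 22132 probes on each array. Per the submitters' processing notes, Agilent Feature Extraction was used; for its version and settings, nothing is given in the sources used here. The values end at -2 and 2, which limits a ratio to 100-fold. Per the labels' protocols the reference was in Cy5 and the embryo RNA in Cy3, so the sign of each value was turned, and a factor of 3.32 brought it to the log2 scale. None of the 6 member probes had a value of exactly 0 or at a limit. The 211 probes at 0 on all arrays were left out. Spot intensities were not used, so brightness over background is not known here; precision is limited by having 6 arrays.

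Of the probes 6249 had 1 gene symbol, 9389 several and 6494 none; all 4 genes matched the mouse gene table by gene ID. Both tests used limma 3.58.1 (lmFit and eBayes, two-sided, Benjamini-Hochberg over 21921 probes, threshold 0.05) in R 4.3.3, with no further normalization, and the fit was tested on simulated data. Python 3.11.15, pandas 2.3.3, NumPy 2.4.6 and matplotlib 3.10.9 did the rest. Distances of 75, 105, 129, 175 and 215 probe numbers were compared. The last had the highest correlation of deviations, 0.0849, and gave the spots of a line. Named genes were the members, the 3 closest probes of each gene, and in each list the extremes of difference and level. Extremes left unnamed are Trpm5 and those of the voltage-gated calcium channels. Nfatc2, Calb1, Atp2a3, Egr2, Nr4a2 and Ccn1 were added after their values were seen. So were the other probes of Stim2, Atp2b1, Ahcyl1 and Ppp3cb. The members and lists were chosen with earlier results of these data known. Alternatives were other scaling, missing values, array weights, a block, the prior, spot position, gene averages and leaving out arrays.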

Additional observations from a re-analysis of the deposited data

How the results depend on the processing

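The count of probes that differ between the groups was 0 under 16 of 17 alternatives and 359 (224 higher, 135 lower) with array weights, whose estimate stopped before it converged and gave array 2 of cycloheximide a weight of 22.6; the cause was not tested. The replicate block gave 0 probes and 2086 at an unadjusted p under 0.05. For arrays with the same number, deviations from the group means correlated at 0.056, 0.379 and 0.501, and array 1 of cycloheximide was closer to array 2 of strontium at 0.457, so the numbers were not taken as pairs. Leaving out array 3 of cycloheximide raised the probes with an unadjusted p under 0.05 from 1319 to 4242. The count of probes that differ from the reference stayed within 1.5 times of 14713 under every alternative.

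Of 108 alternative values of the members' differences 32 equal the reported value, as the setting does not act on it (missing values, probes at 0 kept, the block, the prior, averaging of 1 probe). Of the other 76, 6 changed sign, 5 of them for probe 9573 of Ier2 and 1 for probe 20691 of Slc8a1. Some of the 76 could not: leaving out 1 array cannot turn the sign for Plcd4, Trpm7 and probe 22045 of Ier2, whose groups do not overlap. Of 76 alternative levels that moved, 4 changed sign: that of probe 20691 of Slc8a1 was -0.0058 with line medians and -0.0042 with the medians of neighbouring spots subtracted, and that of probe 22045 of Ier2 was -0.016 with array weights and -0.64 with the probes of the gene averaged. The subtraction of neighbouring spots was added after seeing the data. Signal over background was not analysed here.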
